A study of Mus musculus with 36 samples.

Results

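The keratin genes, 53 of the 53379 genes in the count tables, were followed through 7 groups of mouse kidney and tumor tissue. Members were all protein-coding genes whose symbol is Krt, a number and at most 1 letter, after the Ensembl identifiers of the tables had been matched to GENCODE M21 symbols, so the keratin-associated Krtap genes are not among them. They divide into 6 simple epithelial, 19 stratified epithelial, 8 hair follicle root sheath and 15 hair shaft keratins, with 5 others (Krt24, Krt80, Krt88, Krt90 and Krt222). On GRCm38, 27 lie on chromosome 11 between 99232761 and 100269871, all of type I, and 26 lie on chromosome 15 between 101347444 and 102032027. The second cluster holds the type II genes and a single type I gene, Krt18, which starts 23697 bases from its partner Krt8.

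RNA came from formalin-fixed, paraffin-embedded tissue of mice engineered to develop translocation renal cell carcinoma, in which Cre removes a stop cassette (LSL) and switches on the ASPSCR1-TFE3 fusion. Sglt2-Cre; ASPSCR1-TFE3 LSL/+ mice, with Cre driven by a promoter of the proximal tubule, gave kidney tumors (6 mice, 11 libraries), retro-orbital tumors (4 mice), brain tumors (3 mice) and non-transformed kidney (4 mice). Control kidney came from 3 mice with Sglt2-Cre alone (6 libraries). In the second model Cre was driven by the Pax8 promoter, which is active in the developing kidney, and dysmorphic kidneys came from 5 Pax8-Cre; ASPSCR1-TFE3 LSL/+ fetuses. Kidneys of 3 age-matched fetuses that carried either Pax8-Cre or the LSL allele served as fetal controls, and the sample labels give Pax8-Cre for all 3. Mouse ages, strain and the fetal stage were not given in the sources used here.

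The animal was the unit of comparison, and libraries of the same animal and tissue were summed. Mice 1 to 6 keep their number across tissues, so that kidney tumor 5 and retro-orbital tumor 5 are from the same mouse. Library totals were 80205573 to 121415057 counts. Levels are in CPM (counts scaled to the same library size) after TMM scaling, and only levels per kilobase of exon are compared between genes. In bulk tissue, fewer epithelial cells and less keratin RNA per cell cannot be told apart.

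Keratins form the intermediate filaments of epithelial cells. Each filament is built from pairs of a type I and a type II keratin, and the pair marks the epithelium: Krt8 with Krt18 in simple epithelium, including the tubules and ducts of the kidney, Krt5 with Krt14 in the basal layer of stratified epithelium, Krt1 with Krt10 in the cornifying layers of the epidermis, and a separate series in the hair follicle and hair shaft. Desmosomes anchor these filaments at cell contacts.

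Upstream sequence from RefSeq (GRCm38.p6) is shown for the simple pair Krt8 and Krt18, for Krt20, the simple keratin called higher in kidney tumors, and for Krt10, the most abundant keratin per kilobase in the dysmorphic kidneys. Each runs 5′ to 3′ on the strand of the gene through the 250 bases that precede the RefSeq start. Capitals mark matches, on either strand, to TATAAA or to the AP-2 type motif GCCNNNGGC. The stretches lie at chr15:102004343-102004592, minus strand for Krt8, chr15:102027966-102028215, plus strand for Krt18, chr11:99438154-99438403, minus strand for Krt20 and chr11:99389365-99389614, minus strand for Krt10.
Krt8: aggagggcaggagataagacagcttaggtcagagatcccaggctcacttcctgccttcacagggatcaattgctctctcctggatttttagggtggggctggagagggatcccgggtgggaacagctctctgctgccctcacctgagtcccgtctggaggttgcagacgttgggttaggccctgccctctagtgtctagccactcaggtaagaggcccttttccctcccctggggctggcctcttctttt
Krt18: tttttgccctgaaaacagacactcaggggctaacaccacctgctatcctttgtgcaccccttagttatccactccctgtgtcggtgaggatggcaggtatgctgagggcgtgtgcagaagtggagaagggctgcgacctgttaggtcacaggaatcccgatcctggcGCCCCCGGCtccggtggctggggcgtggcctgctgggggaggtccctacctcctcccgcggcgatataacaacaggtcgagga
Krt20: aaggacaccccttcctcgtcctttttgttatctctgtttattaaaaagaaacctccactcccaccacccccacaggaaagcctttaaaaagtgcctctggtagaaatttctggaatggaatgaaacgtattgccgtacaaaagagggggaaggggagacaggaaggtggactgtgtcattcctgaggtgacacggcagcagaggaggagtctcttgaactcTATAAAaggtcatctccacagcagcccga
Krt10: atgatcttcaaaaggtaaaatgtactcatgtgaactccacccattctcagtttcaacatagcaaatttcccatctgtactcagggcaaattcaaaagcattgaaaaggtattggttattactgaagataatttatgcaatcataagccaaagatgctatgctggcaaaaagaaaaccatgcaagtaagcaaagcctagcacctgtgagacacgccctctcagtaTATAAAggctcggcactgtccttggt

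Krt20 and Krt10 held TATAAA, beginning 29 and 26 bases before the start, whereas the windows of Krt8 and Krt18 did not. These windows depend on the RefSeq start, since 140 bases of the Krt8 window and 36 of the Krt18 window lie inside the gene as GENCODE annotates it, and 8 of all keratin windows overlap in this way. Promoter sequence was matched for 36 of the 53 keratins, and 17 of them (47.2%) held TATAAA, compared to 13.0% of all 27025 promoters. Within the last 50 bases the motif was found in 15 of the 36 (41.7%), compared to 3.78% of all genes. By class it was present there in 6 of 8 root sheath, 5 of 9 hair shaft, 3 of 12 stratified and 1 of 5 simple keratins, the last being Krt20. The E-box CACGTG was found in 3 keratin promoters (8.33%; 6.05% of all), TGANTCA in 1 (2.78%; 6.87% of all) and GCCNNNGGC in 5 (13.9%; 13.6% of all). These are letter matches in a fixed window and not measured binding sites.

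In adult kidney the simple keratins dominated. Per kilobase of exon, Krt8 led in control kidneys with a mean of 21.3 CPM, followed by Krt7 with 11.5 and Krt18 with 7.0. By the length of the longest transcript, Krt7 was at 19.7 and close to Krt8, and the order was the same. The 6 simple keratins summed to 118, 137 and 155 CPM in the 3 control mice, and the 19 stratified keratins to 9.51, 3.17 and 6.25 CPM. Krt8 was almost constant, at 41.1, 41.3 and 42.9 CPM. Krt7 was at 62.0, 83.2 and 96.9 CPM and Krt18 at 9.09, 9.71 and 11.4 CPM in the same mice. Krt19, a type I keratin of ducts, was at 4.27, 1.2 and 2.51 CPM, and Krt23, a type I simple keratin, at 1.23, 0.763 and 1.28 CPM. Krt80, a type II keratin found in many epithelia, was at 6.96, 9.31 and 8.54 CPM. The ratio of Krt18 to Krt8 per kilobase was 0.302 to 0.362. Of the 53 keratins, 27 had at least 1 count in control kidney and 8 reached a mean of 1 CPM, and no root sheath or hair shaft keratin did so.

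**Figure D1:**
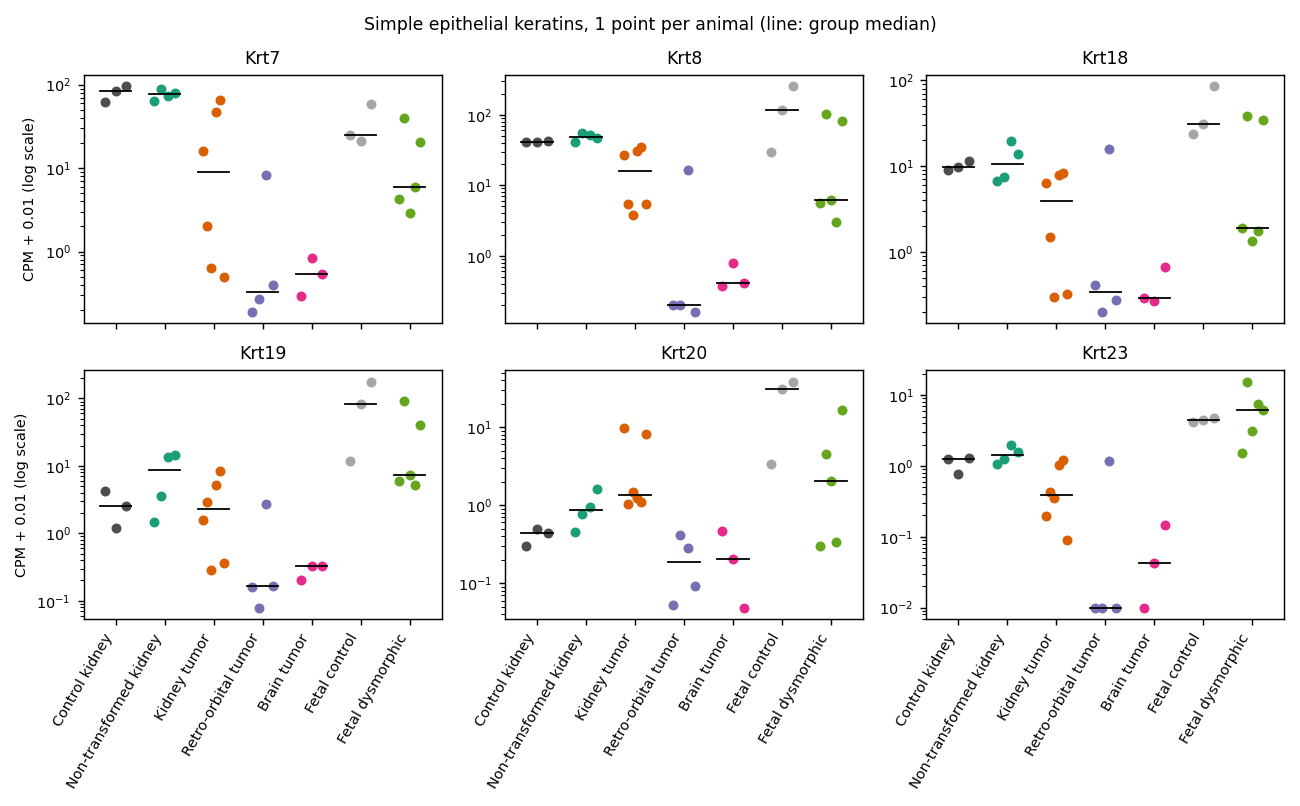
Levels of the 6 simple epithelial keratins (CPM plus 0.01, log scale) in the 7 groups, with 1 point per animal and a line at the group median. Krt8 lies between 41.1 and 42.9 CPM in control kidneys, spreads from 3.73 to 35.2 CPM in kidney tumors and is under 1 CPM in every brain tumor, while Krt20 is higher in every kidney tumor than in the controls.

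Kidney tumors were compared to control kidneys to see which keratins change in tumor tissue of the same organ. Krt20, a simple keratin of intestinal and urothelial surface cells, rose, and 2 stratified keratins of very low level, Krt42 and Krt79, were called with it. Of 22 keratins tested, 3 were called higher and 0 lower (edgeR, adjusted p under 0.05), against 12.5% higher and 6.51% lower among all 23578 genes tested. The median log2 fold change was 0.36 over the keratins tested, 0.05 over all genes, -1.12 over the 6 simple keratins and 1.41 over the 12 stratified keratins tested. In 4 keratins, Krt1, Krt20, Krt42 and Krt79, the level was higher in every tumor mouse than in every control mouse (15.2% of all genes), and in 3, Krt8, Krt18 and Krt80, it was lower in every one (14.7%).

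Krt20 was at 0.287, 0.49 and 0.427 CPM in the control mice and at 1.02 (lowest), 1.35 (median) and 9.68 CPM (highest) in the tumor mice. Mice 1 and 6 were the high ones, at 9.68 and 8.24 CPM, and the groups did not overlap. The means were 3.79 ± 4.04 CPM (SD, n = 6) and 0.401 ± 0.104 CPM (n = 3), with a log2 fold change of 3.28 (SE 1.01, adjusted p = 0.0495). That call ended without mouse 1, 3 or 6 or without any 1 of the controls, with adjusted p between 0.0579 and 0.152, and without the filter on low counts (3.25, adjusted p = 0.0565), and the log2 fold change stayed between 2.75 and 3.48 in all 9 such fits. Both libraries of mouse 1 (8.24 and 11.0 CPM) and of mouse 6 (12.8 and 3.4 CPM) carried it.

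Krt42 and Krt79 had 0 counts in the controls and passed the filter on low counts only through the tumors, so that a higher value was the only possible outcome. Without both, the median log2 fold change of the stratified keratins was 0.76. In the tumor mice Krt42 was at 0.0194 to 0.171 CPM (73 counts in all; adjusted p = 0.019) and Krt79, a keratin of sebaceous and follicular ducts, at 0.00939 to 0.119 CPM (59 counts; adjusted p = 0.0231). Against a floor of 3 counts over the control group they were at least 16.5-fold and at least 12.6-fold higher, or at least 8.25-fold and 6.3-fold when counts were halved. With halved counts, which allow for both mates of a read pair having been counted, 1 keratin, Krt20, was called and neither of these was.

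The abundant simple keratins were below the controls in every tumor or in most, but none passed the test. Krt8 was at 3.73 (lowest), 16.1 (median) and 35.2 CPM (highest), all below the lowest control at 41.1 CPM, with a log2 fold change of -1.22 (SE 0.69, adjusted p = 0.23). Krt7, a keratin of collecting duct and other ductal epithelium, ran from 0.486 through a median of 8.96 to 65.6 CPM, compared to 62.0, 83.2 and 96.9 CPM in controls (-1.88, SE 1.29, adjusted p = 0.319). Tumors of mice 1, 4 and 5 held most of this RNA and those of mice 2, 3 and 6 little. Krt18 ran from 0.289 through 3.9 to 8.41 CPM (-1.28, SE 0.96, adjusted p = 0.361), Krt19 from 0.279 through 2.25 to 8.48 CPM (0.23, SE 0.98, adjusted p = 0.885) and Krt23 from 0.0793 through 0.38 to 1.2 CPM (-1.02, SE 0.71, adjusted p = 0.326). Krt80 ran from 0.159 through 1.41 to 5.37 CPM, below every control (-1.92, SE 0.88, adjusted p = 0.149). Krt7, Krt19 and Krt23 overlapped with the controls, and Krt18 did not.

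The same split was seen in the class sum. Simple keratins summed to 60.3, 92.8 and 120 CPM in mice 1, 4 and 5 and to 13.3, 6.76 and 14.9 CPM in mice 2, 3 and 6. Proximal tubule markers moved with it, at 2420, 7720 and 7340 CPM in mice 1, 4 and 5 and 627, 629 and 639 CPM in mice 2, 3 and 6, against 11100 to 12100 CPM in controls. Cdh1, the adhesion molecule E-cadherin, was at 64.1, 154 and 160 CPM in the first 3 mice and at 10.1, 4.08 and 3.11 CPM in the others. Between libraries of the same mouse, tubule markers and keratins did not always move together. In mouse 1 the markers were at 3890 and 1030 CPM, with Krt7 at 28.3 and 4.12 CPM and Krt8 at 26.7 and 26.3 CPM. In mouse 2 the markers were at 1070 and 241 CPM, with Krt7 at 0.403 and 3.37 CPM. The part that residual kidney epithelium plays in the keratin levels was not tested. The 6 proximal tubule genes and the 4 mesothelial genes tested had 0 calls, and so did 6 of the 7 collecting duct genes, whose list median was -1.87. Among these 6, Scnn1g was at 54.2, 95.9 and 102 CPM in controls. In tumors it was at 0.188 to 11.4 CPM in mice 1, 2, 3 and 6 and at 48.4 and 24.3 CPM in mice 4 and 5. The seventh, the water channel Aqp3, was called higher (3.31, adjusted p = 0.000584). Single keratins broke the split. Krt19 was at 2.94 CPM in mouse 2 and 1.56 CPM in mouse 1, and Krt23 was lower in mouse 1 (0.184 CPM) than in mice 2 and 3 (0.413 and 0.347 CPM). For Krt20, mouse 6, with Krt8 at 5.44 and Krt7 at 0.486 CPM, had the second highest Krt20. The ratio of Krt18 to Krt8 per kilobase was 0.324 to 0.365 in mice 1, 2, 4 and 5. It was lower in mice 3 and 6, at 0.106 and 0.0796, on 55 and 64 counts of Krt18.

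Genes that work with keratins were called at shares to be read against 12.5% higher and 6.51% lower among all genes. Of 16 desmosome and keratin linker genes tested, Plec, which binds filaments to the membrane, was called higher (log2 fold change 1.4, adjusted p = 0.0133), and Jup, Pkp4 and Dsg2 were called lower (-0.72, -1.48 and -1.21). Of 16 genes of epithelial adhesion and fate, Cldn4, a claudin of tight junctions, was called higher (4.2, adjusted p = 0.00353) and 0 were called lower, with a list median of -1.23. Among 16 other intermediate filament genes 6 were called higher and 0 lower. They were Vim, the filament of mesenchymal cells (2.18, adjusted p = 0.00184), Nefm, Nefl, Synm and the lamins Lmnb1 and Lmna. The list of tubular injury markers, of which Krt20 is a member, had 5 of 6 called higher, with Sox9 at 5.62, Lcn2 at 3.86, Vcam1 at 3.49 and Spp1 at 1.37 beside Krt20. The sixth, Havcr1 (KIM-1, a marker of proximal tubule injury), was at 61, 38.6 and 56 CPM in controls and at 0.497 to 33.2 CPM in tumors, below every control (-2.43, SE 1.16, adjusted p = 0.162).

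Epidermal genes other than keratins were also called in these tumors. Ivl, the cornified envelope protein involucrin, was at 33.8 to 400 CPM in kidney tumors and at 0.00889 to 0.0861 CPM in controls (log2 fold change 12.56, adjusted p = 0.000869). Lce1b and Lce1a1 were called with it, 3 of the 14 epidermal markers tested, against 12.5% of all genes called higher. Lce1b and Lce1a1 reached 0.516 and 0.341 CPM in tumors and at most 0.00957 CPM in controls. All 3 passed the filter on low counts only through the tumors, so that a higher value was the only possible outcome. Neither epidermal keratin was called there. Krt1 was at 0.204 to 3.2 CPM and Krt10 at 0.929 to 5.12 CPM in the tumors, against 0.0924 to 0.163 and 2.94 to 4.24 CPM in controls. Flg and Lor, which define cornifying epidermis, stayed at or below 1.25 and 0.253 CPM in every kidney tumor.

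Non-transformed kidney of fusion mice was set against the tumors and against control kidney. Compared to non-transformed kidney, 0 of 18 keratins were called in tumors by edgeR (12.1% of all genes called higher, 5.02% lower), and DESeq2 called 1, Krt20. The median log2 fold change was -1.03 over the keratins and -0.02 over all genes. Krt20 was at 0.441, 0.752, 0.949 and 1.6 CPM in non-transformed kidney of mice 1, 3, 4 and 5, so that the groups overlapped (log2 fold change 1.99, SE 0.83, adjusted p = 0.119). Krt8 was at 41.7, 54.5, 51.7 and 46.4 CPM, above every tumor (-1.48, SE 0.62, adjusted p = 0.123). With mouse as a block, in the mice that gave both tissues, 0 keratins were called and the Krt20 difference was 1.08 (adjusted p = 0.513).

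Between non-transformed and control kidney, edgeR called 0 of 15 keratins (0.00952% of all genes called higher, 0% lower), and DESeq2 called 0. The median was 1.03 over the keratins and 0.03 over all genes. Basal stratified keratins differed among the animals of both groups. Krt5 was at 0.15, 0.445, 10.5 and 10.2 CPM in non-transformed kidney of mice 1, 3, 4 and 5 and at 1.57, 0.037 and 1.29 CPM in controls. Krt15, a keratin of basal and stem-like cells, was at 0.00938, 0.0495, 6.74 and 7.33 CPM, and at 1.87, 0.0185 and 0.986 CPM in controls. Mice 4 and 5 stood high in both genes. Krt17 stood apart in mouse 5 alone, at 3.91 CPM. Krt7 was at 63.9 to 87.6 CPM and Krt80 at 5.63 to 8.48 CPM in non-transformed kidney, within or near the control values.

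Urothelial markers were high in the same animals. They summed to 31.7 and 24.2 CPM in non-transformed kidney of mice 4 and 5 and to 2.53 and 3.93 CPM in mice 1 and 3. In control mouse 1, 1 library had Krt15 at 3.66 CPM with a urothelial sum of 24.3 CPM and the other had Krt15 at 0 with a sum of 2.69 CPM. In control mouse 3 the values were 1.9 with 12.9 CPM and 0.0168 with 3.88 CPM. The keratins Krt5, Krt15 and Krt19 therefore differed between pieces of the same animal's kidney as well as between animals. None of the urothelial markers was called between these groups. The part that sampled urothelium plays was not tested.

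**Figure D2:**
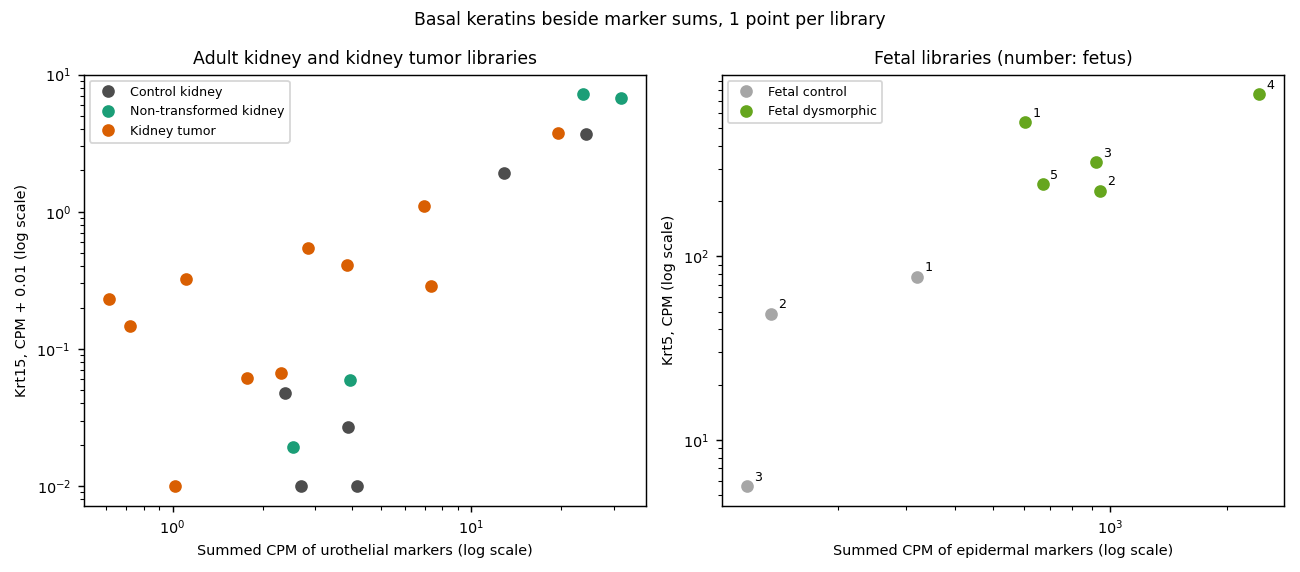
Basal keratins beside summed marker levels (CPM, log scales), with 1 point per library. Krt15 plus 0.01 against urothelial markers in adult kidney and kidney tumors is on the left, where the control libraries with 24.3 and 12.9 CPM of markers have 3.66 and 1.9 CPM of Krt15, and Krt5 against epidermal markers in fetal kidneys is on the right, where the 5 dysmorphic kidneys lie above the 3 controls on both axes.

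Retro-orbital and brain tumors of the same model were compared to the kidney tumors to see whether keratin expression differed by site. In retro-orbital tumors 20 keratins were tested, 0 were called higher and 1, Krt20, lower (8.26% of all genes higher, 9.45% lower). The median log2 fold change was -0.78 over the keratins, -2.04 over the 6 simple keratins and -0.09 over all genes. Krt20 was at 0.0422, 0.399, 0.273 and 0.0833 CPM in mice 2, 3, 5 and 6, below every kidney tumor. The log2 fold change was -4.29 (SE 1.06, adjusted p = 0.0206) and the mean 0.199 ± 0.167 CPM (n = 4). With mouse as a block it was -3.55 and no longer called (adjusted p = 0.075), and the call also ended without mouse 2, 3 or 6 (adjusted p 0.0514 to 0.093). In mouse 6 the kidney tumor had 8.24 CPM of Krt20 and the retro-orbital tumor 0.0833 CPM.

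The other simple keratins were near 0 in 3 of the 4 retro-orbital tumors. Krt8 was at 0.19, 0.191, 16.6 and 0.15 CPM in mice 2, 3, 5 and 6, Krt18 at 0.4, 0.191, 15.7 and 0.267 CPM, and Krt7 at 0.179, 0.26, 8.15 and 0.383 CPM. Mouse 5 stood apart from the other 3 in each. Krt19 and Krt23 followed, at 2.68 and 1.15 CPM in mouse 5, at most 0.158 CPM for Krt19 in the others, and 0 for Krt23 there. Over all 4 tumors Krt8 was not called (log2 fold change -2.06, SE 1.44, adjusted p = 0.346). Without the retro-orbital tumor of mouse 5, Krt8, Krt19, Krt20 and Krt23 were all called lower, Krt8 at -6.64 (adjusted p = 0.00472). That fit was chosen after seeing the data, and its share of all genes called is not given here. With mouse as a block over the mice with both tissues, Krt8 was called at -3.89 (adjusted p = 0.044).

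The retro-orbital tumor of mouse 5 also held a basal stratified pair. Krt5 was at 27.4 CPM and Krt14 at 12.5 CPM there, against at most 0.458 and 0.1 CPM in the other 3, and Krt6a reached 1.1 and Krt15 2.78 CPM. The ratio of Krt18 to Krt8 per kilobase was 1.29 in it and 2.88, 1.36 and 2.42 in mice 2, 3 and 6, where each gene had at most 38 counts, compared to 0.188 to 0.52 in adult kidney. Pax6, Aldh3a1 and Aqp5, which mark ocular surface and gland epithelium among other tissues, were at 13.8, 5.12 and 2.97 CPM in that library and at most 0.105, 0.295 and 0.485 CPM in the other 3, and Aqp5 was called higher over all 4 tumors, 1 of 4 such markers tested. Krt12, the defining keratin of the cornea, was at 0. Proximal tubule markers summed to 1020 CPM in it and to 84.1, 170 and 125 CPM in mice 2, 3 and 6. The part of adjoining tissue in these values was not tested.

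Simple keratins were low in every brain tumor. All 6 simple keratins were under 1 CPM in all 3 tumors, and their sum was 1.58, 2.41 and 2.08 CPM in mice 1, 2 and 4. Compared to kidney tumors, 23 keratins were tested, 1 was called higher and 1 lower (4.54% and 4.2% of all genes). The median log2 fold change was -3.68 over the 6 simple keratins, -1.27 over all keratins tested and 0.03 over all genes. Of the 6 simple keratins only Krt8 passed the adjusted threshold.

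Krt8 was at 0.361, 0.773 and 0.407 CPM in brain tumors of mice 1, 2 and 4, below every kidney tumor. The log2 fold change was -5.02 (SE 1.02, adjusted p = 0.023), with means of 0.514 ± 0.226 CPM (n = 3) and 17.8 ± 14.4 CPM (n = 6). Krt8 was not called with mouse as a block (-5.14, adjusted p = 0.285), a fit in which 0 of all genes passed, nor without the brain tumor of mouse 2 (-5.46, adjusted p = 0.0531), nor without mouse 1, 2 or 4 altogether (adjusted p 0.0669 to 0.0945). Krt20 was at 0.456, 0.195 and 0.0388 CPM, below every kidney tumor (-3.94, SE 1.23, adjusted p = 0.0753), and Krt7 at 0.285, 0.83 and 0.524 CPM (-5.24, SE 1.87, adjusted p = 0.106). Krt18, Krt19 and Krt23 reached at most 0.659, 0.32 and 0.136 CPM. Elf3 and Cldn7, an epithelial transcription factor and a claudin, were called lower with it (-6.12 and -5.74), as were the desmosomal cadherin Dsg2 and the linker Dst (-2.51 and -1.05).

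Krt222, a keratin-like gene, was the keratin called higher. It was at 0.873, 22.1 and 2.42 CPM in mice 1, 2 and 4 and at 0.101 to 1.53 CPM in kidney tumors, so the groups overlapped through mouse 1 (log2 fold change 4.01, SE 1.03, adjusted p = 0.0447). Without the brain tumor of mouse 2 it was 1.61 (adjusted p = 0.288), and the call also ended with mouse as a block (2.36, adjusted p = 0.485) and without any 1 mouse other than mouse 4 (adjusted p 0.0695 to 0.363). Without the filter on low counts it was 3.96 and just missed the threshold (adjusted p = 0.0519). Markers of neurons and glia moved with it, at 122, 1440 and 408 CPM in the same 3 tumors, and the neuronal gene Snap25 at 2.26, 286 and 14.9 CPM. Of these 6 markers Rbfox3 and Mbp were called higher. The tumor of mouse 2 also had Krt77 at 3.39 and Krt9 at 2.31 CPM, against at most 0.0776 and 0.31 CPM in the other brain tumors. The part of brain tissue in these values was not tested.

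Between brain and retro-orbital tumors edgeR called 0 of 16 keratins (0.395% of all genes higher, 1.34% lower), and DESeq2 called 3, Krt1, Krt10 and Krt222. The median log2 fold change was -1.31 over the keratins and 0.04 over all genes. Krt222 was at 0.0843 to 0.51 CPM in retro-orbital tumors, below every brain tumor (4.89, SE 1.25, adjusted p = 0.0928). Krt10 was at 3.7, 3.16 and 1.83 CPM in brain tumors and at 0.875, 1.05, 1.36 and 1.57 CPM in retro-orbital tumors (log2 fold change 1.3, SE 0.38, adjusted p = 0.118), again without overlap. An antisense gene, Gm11940, overlaps Krt10, and its reads can be told apart only if counting used strand, which was not given in the sources used here.

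**Figure D3:**
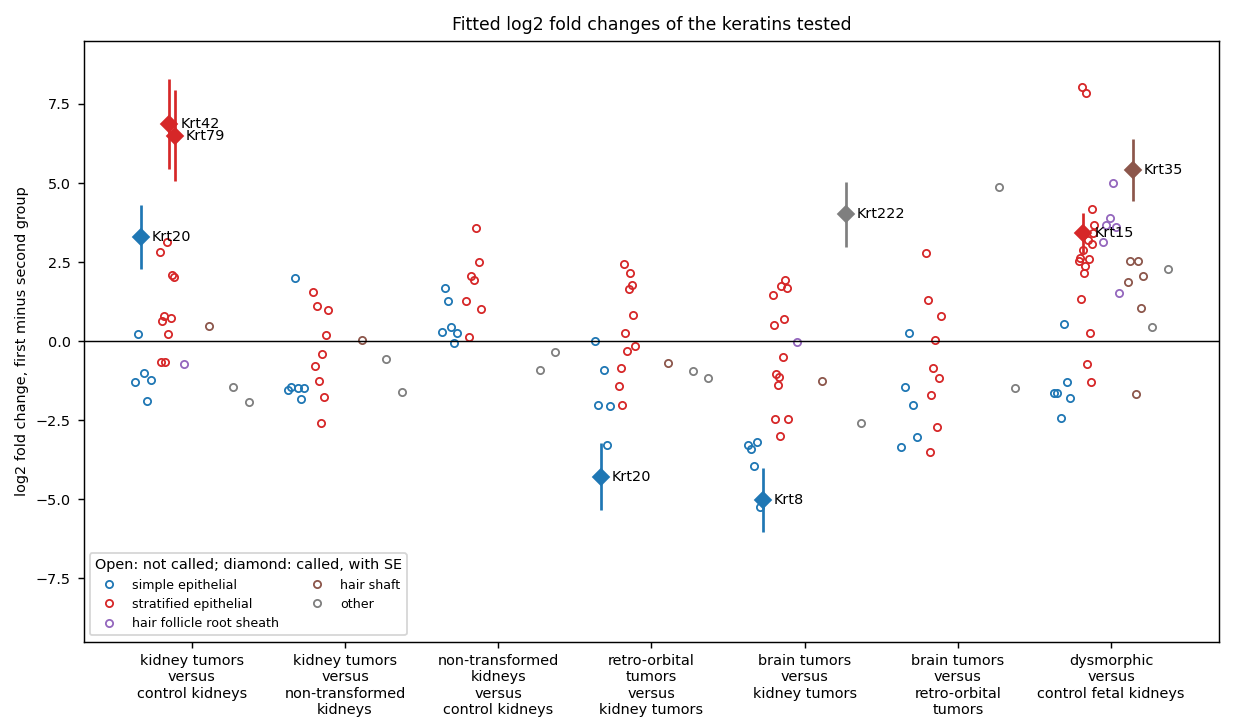
Fitted log2 fold changes of every keratin tested (first minus second group named on the x axis), by keratin class. Diamonds with SE bars mark the keratins called, which are Krt20, Krt42 and Krt79 in kidney tumors against controls, Krt20 in retro-orbital and Krt8 and Krt222 in brain tumors against kidney tumors, and Krt15 and Krt35 in dysmorphic fetal kidneys.

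Each fetal kidney held more keratin RNA than any adult tissue, and in all dysmorphic kidneys most of it was stratified. Dysmorphic kidneys were compared to fetal controls, and Krt15 and the hair keratin Krt35 were called higher. Krt35, with 2 counts in all controls, passed the filter on low counts only through the dysmorphic kidneys. A higher value was the only possible outcome for it. Of 39 keratins tested, 2 were called higher and 0 lower (2.4% and 0.269% of all 22690 genes tested). The median log2 fold change was 2.52 over the keratins and -0.04 over all genes, with 2.75 for stratified, 3.63 for root sheath, 2.06 for hair shaft and -1.64 for simple keratins. In 16 keratins every dysmorphic kidney was above every control (10.6% of all genes).

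Stratified keratins summed to 1650, 2420, 2150, 4560 and 1420 CPM in dysmorphic fetuses 1 to 5 and to 728, 308 and 20.5 CPM in control fetuses 1 to 3. They made up 87.3% to 99% of all keratin CPM in the dysmorphic kidneys and 87.7%, 51.7% and 3.17% in the controls. The groups did not overlap in the sum, but control fetus 1 reached the share of the dysmorphic kidneys. Per kilobase, Krt10 led in dysmorphic kidneys with a mean of 346 CPM, followed by Krt1 with 204, Krt5 with 192 and Krt14 with 73.0, whereas Krt8 led in fetal controls with 68.3.

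The basal keratins did not overlap between the groups. Krt15 was at 97.0, 88.0, 50.2, 128 and 40.4 CPM in dysmorphic fetuses 1 to 5 and at 12.5, 6.89 and 2.47 CPM in controls 1 to 3. The lowest dysmorphic value was above the highest control. The log2 fold change was 3.42 (SE 0.63, adjusted p = 0.0395), with means of 80.7 ± 35.8 CPM (SD, n = 5) and 7.3 ± 5.05 CPM (n = 3). Leaving out dysmorphic fetus 2 or 5 kept the call, while leaving out any 1 of the other 6 fetuses ended it (3.01 to 4.05, adjusted p 0.081 to 0.179), fits in which 0 of all genes passed. With the code that starts the library titles as a covariate, the fold change was as large and just missed the threshold (3.59, adjusted p = 0.0513).

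Krt5 was at 539, 231, 326, 767 and 251 CPM, compared to 78.0, 49.6 and 5.64 CPM (3.2, SE 0.85, adjusted p = 0.0868). Its partner Krt14 was at 159, 56.7, 110, 240 and 75.1 CPM, compared to 29.0, 18.6 and 2.65 CPM (2.89, SE 0.81, adjusted p = 0.102). Neither group pair overlapped, and neither keratin was called by edgeR. The ratio of Krt14 to Krt5 per kilobase was 0.307 to 0.42 in dysmorphic and 0.465 to 0.586 in control kidneys.

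Krt17, a keratin of hair follicle and of injured epidermis, was at 50.9, 16.8, 34.0, 71.2 and 20.6 CPM against 9.52, 6.67 and 5.35 CPM (2.38, SE 0.52, adjusted p = 0.0555). The cornifying pair was more variable. Krt1 was at 434, 906, 905, 1710 and 536 CPM and at 328, 128 and 0.281 CPM in controls, and Krt10 at 327, 690, 682, 1500 and 460 CPM and at 257, 87.6 and 1.34 CPM. Control fetus 3 had little of the pair and control fetus 1 lay not far below dysmorphic fetus 1. The ratio of Krt10 to Krt1 per kilobase was 1.57 to 1.83 in the dysmorphic kidneys and 1.64 and 1.43 in control fetuses 1 and 2.

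Krt78, a type II keratin of upper stratified layers, was at 12.2, 51.5, 24.9, 93.4 and 25.4 CPM against 8.87, 3.81 and 1.69 CPM, and Krt79 at 20.9, 5.41, 12.4, 23.8 and 7.38 CPM against 2.52, 1.18 and 0.0497 CPM. Krt16, the partner of Krt6 in activated epidermis, was at 1.81, 1.73, 1.88, 4.25 and 1.05 CPM against 0.664, 0.625 and 0.116 CPM. Krt80 was at 4.56, 7.61, 3.2, 8.2 and 2.96 CPM against 1.61, 0.893 and 0.662 CPM (2.28, SE 0.5, adjusted p = 0.0543). In all 4 the groups did not overlap, and none was called by edgeR.

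Hair keratins were found at low level. Krt35, a type I keratin of the hair shaft, was at 0.469, 0.139, 0.377, 0.178 and 0.214 CPM in dysmorphic fetuses and at 0.0158, 0 and 0 CPM in controls (log2 fold change 5.41, SE 0.98, adjusted p = 0.0382). With 2 counts in all controls against 149, the ratio on halved counts was 50 with a 95% exact interval of 8.7 to 2000, which covers counting error only. Krt35 passed the filter on low counts only through the dysmorphic kidneys, so that a higher value was the only possible outcome. Like Krt15, Krt35 was called in the fits without dysmorphic fetus 2 or 5 and in none of the other 6 (4.88 to 8.0, adjusted p 0.0791 to 0.172). Root sheath keratins summed to 26.0, 5.21, 13.1, 12.6 and 3.02 CPM against 1.84, 0.878 and 0.381 CPM, and 6 of these 8 genes were tested with none called. Krt25 was at 6.95, 1.52, 3.93, 3.75 and 1.05 CPM against 0.704, 0.275 and 0.166 CPM, and Krt71, a type II keratin of the inner root sheath, at 4.7, 0.837, 1.53, 1.64 and 0.148 CPM against 0.142, 0.0149 and 0 CPM. Krt28, Krt73 and Krt27, of the inner root sheath too, reached 6.14, 3.74 and 3.49 CPM in dysmorphic fetus 1 and at most 0.395, 0.285 and 0.237 CPM in the controls. Fetus 1 was the highest and fetus 5 the lowest dysmorphic kidney for each of these 5 keratins. Of the 6 hair markers tested Dsg4 and Foxn1 were called higher (3.47 and 3.04), against 2.4% of all genes. Tchh, which gave most of the summed level of that list, was at 17.8, 17.5, 11.1, 14.3 and 8.49 CPM in dysmorphic kidneys and at 22.4, 14.8 and 10.4 CPM in controls, and the list sums overlapped (12.6 to 23.3 and 13.9 to 23.6 CPM). The 4 keratin-associated Krtap genes of that list, which belong to the hardened hair shaft, were at 0 or at most 0.0989 CPM in every dysmorphic kidney.

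Dysmorphic fetus 2 differed from the rest in a second stratified pair. Krt4 and Krt13, the keratins of non-cornifying epithelium such as that of the mouth and oesophagus, were at 179 and 166 CPM in it and at most 0.521 and 0.942 CPM in the other 4, and Krt6a was at 26.7 CPM against at most 1.43 CPM. Krt77 stood apart in dysmorphic fetus 4, at 17.5 CPM.

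Simple keratins were low in some dysmorphic kidneys only. Krt8 was at 5.56, 104, 6.12, 2.97 and 81.0 CPM in dysmorphic fetuses 1 to 5 and at 29.3, 115 and 257 CPM in controls 1 to 3, and Krt19 at 5.9, 92.7, 7.29, 5.21 and 39.7 CPM against 11.9, 82.9 and 178 CPM. Krt7 was at 4.28, 40.4, 2.86, 5.92 and 20.7 CPM against 24.8, 21.2 and 59.0 CPM, Krt18 at 1.88, 38.4, 1.32, 1.76 and 34.3 CPM against 24.0, 31.1 and 86.2 CPM, and Krt20 at 0.292, 4.54, 2.03, 0.329 and 16.4 CPM against 3.41, 31.2 and 38.4 CPM. Krt23 was above the controls in fetuses 2, 4 and 5, at 1.51, 15.6, 3.12, 7.46 and 6.26 CPM against 4.12, 4.52 and 4.83 CPM. For Krt8 and Krt19, fetuses 2 and 5 were within the control range, and fetuses 1, 3 and 4 were below it. Of the 6 simple keratins tested, 0 were called and 0 had an unadjusted p under 0.05. DESeq2 called 0 simple keratins in this comparison.

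Summed markers of skin and of muscle were higher in every dysmorphic kidney than in every control. Epidermal markers summed to 607, 960, 919, 2420 and 684 CPM in dysmorphic kidneys and to 137 and 117 CPM in controls 2 and 3. Control fetus 1 was the nearest, at 53.0% of the lowest dysmorphic kidney. In control fetus 3 a single gene, the transglutaminase Tgm3, made up 75.3 of the 117 CPM, with Flg at 0.0331 and Krtdap at 0.679 CPM. Sprr1a was higher in that control (12.2 CPM) than in 4 of the 5 dysmorphic kidneys (0.181 to 0.49 CPM). Trp63 and Ivl were called higher among the 16 epidermal markers tested, against 2.4% of all genes. All 5 skeletal muscle markers were called higher, with sums of 2500 to 5730 CPM against 1070 to 1260 CPM. Within the groups the muscle sums did not follow the stratified keratins. Dysmorphic fetus 1 had more muscle marker RNA than fetus 2 (5160 and 2500 CPM) but less stratified keratin (1650 and 2420 CPM). Flg, which defines cornified epidermis, was at 136 to 785 CPM in dysmorphic kidneys and at 99.1, 32.9 and 0.0331 CPM in controls. Proximal tubule markers were at 43.1, 136, 63.9, 22.3 and 816 CPM, against 1110 to 1340 CPM in controls. The part that skin in the sampled tissue plays in the keratin levels was not tested, and library titles start with 1 of 2 codes that fall across both groups. With the code as a covariate 1 keratin, Krt35, was called (5.52, adjusted p = 0.0487), for which a higher value was the only possible outcome.

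**Figure D4:**
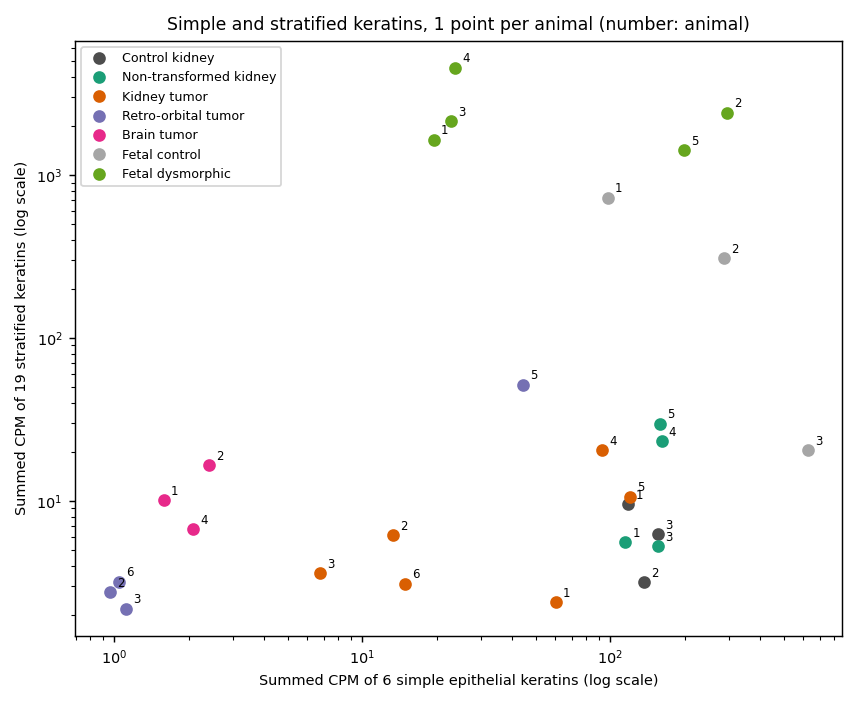
Summed CPM of the 19 stratified keratins against that of the 6 simple keratins (log scales), with 1 point per animal, numbered within its group. Dysmorphic fetal kidneys lie at 1420 CPM or more of stratified keratin, retro-orbital tumors 2, 3 and 6 at about 1 CPM of simple keratin, and retro-orbital tumor 5 apart from them at 44.5 and 51.5 CPM.

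Across all 7 groups 26 keratins reached a mean of 1 CPM in at least 1 group. Counts of keratins at that level were 8 in control kidney, 11 in non-transformed kidney, 8 in kidney tumors, 6 in retro-orbital tumors, 6 in brain tumors, 16 in fetal controls and 25 in dysmorphic kidneys. No hair shaft keratin reached it in a group, and all 15 together summed to at most 2.57 CPM in an animal. Krt40 had 0 counts in all 36 libraries, and Krt72 and Krt39 had 4 and 14 counts in total. Reads of close copies, such as Krt6a and Krt6b or Krt81, Krt83 and Krt86, could have been split between them in counting, and their levels are uncertain.

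**Figure D5:**
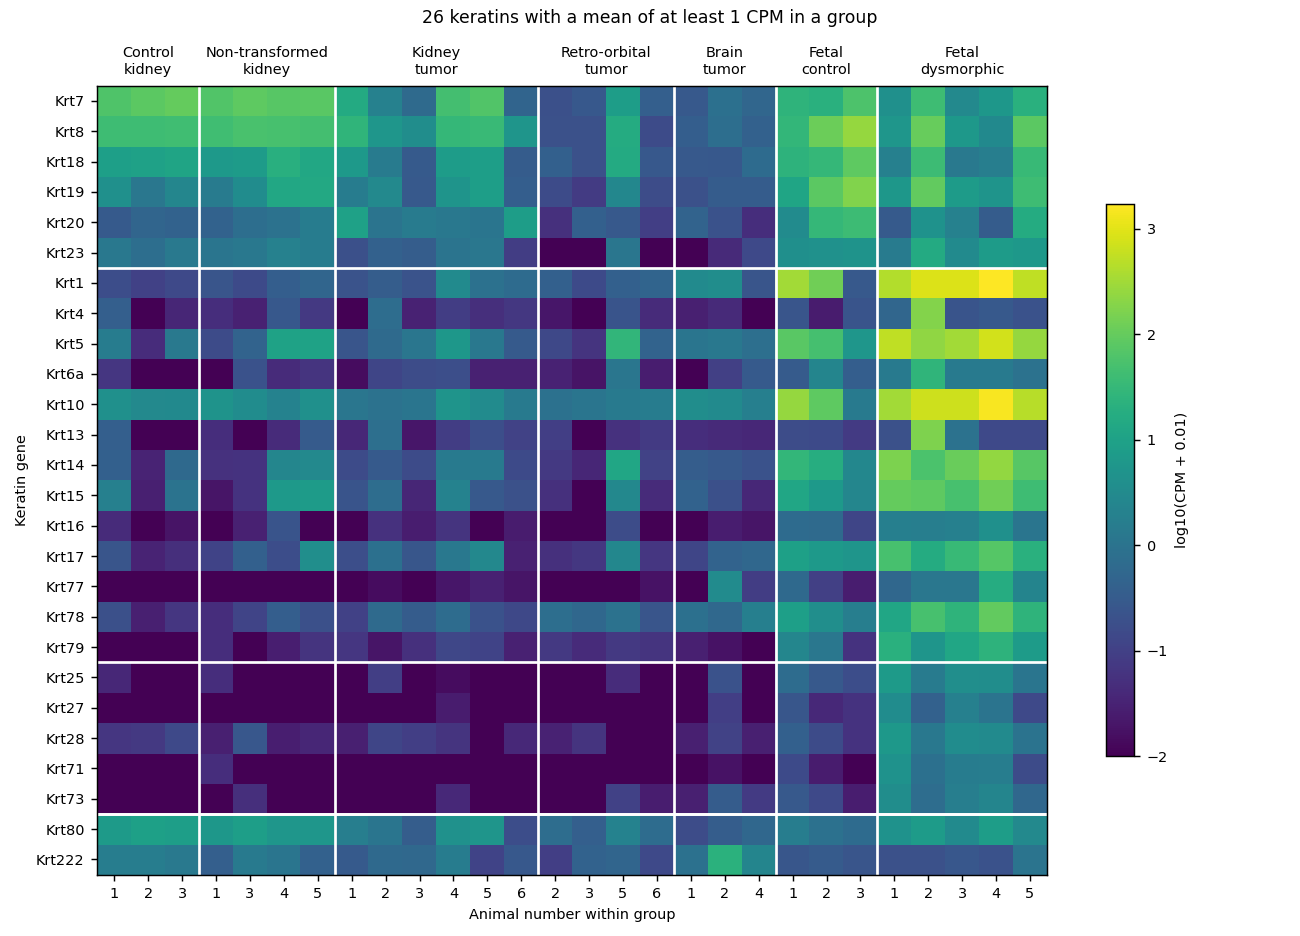
Levels, as log10 of CPM plus 0.01, of the 26 keratins with a mean of at least 1 CPM in some group (rows, by class) in each animal (columns, by group). The simple keratins are bright in adult and fetal kidney and dark in brain tumors and retro-orbital tumors 2, 3 and 6, while Krt1, Krt5, Krt10 and Krt14 are brightest in the dysmorphic kidneys.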

How the data were processed

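The authors deposited raw counts per gene in 2 tables covering 36 libraries of stranded total RNA, with no normalization. The submitters' processing notes name STAR 2.5.2a, Bowtie2, FastQC and MultiQC and the builds GRCm38 and mm10. The counter, its strand setting and the annotation were not given in the sources used here. In each library 79.04% to 84.33% of values from 1 to 20 were even, as when both mates of a pair are counted. No molecular identifiers were used to tell duplicates apart, so intervals and the floor of 3 counts cover counting error only. Of 53379 gene identifiers 53274 matched GENCODE M21, which may not be the authors' release.

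Libraries of an animal and tissue were summed. The 7 comparisons were each fitted to their 2 groups with all genes of the table, using edgeR 4.0.16 in R 4.3.3 (TMM, filterByExpr, quasi-likelihood F-test) with Benjamini-Hochberg adjustment, and called at an adjusted p under 0.05. SE was taken as the absolute log2 fold change over the root of F. The code was tested on simulated data. Alternatives were RLE scaling, DESeq2 1.42.0, no filter, halved counts, all groups of a table in 1 fit, longest-transcript lengths, the title code of fetal libraries, mouse as a block, and leaving out each animal. Leaving out 1 retro-orbital or brain tumor alone, and fitting the block's mice without it, were chosen after seeing the data. Tissues of the same mouse are paired. The correlation of their deviations from group means across genes was -0.041 to 0.157 for non-transformed kidney, 0.244 to 0.326 for retro-orbital tumors and -0.064 to -0.06 for brain tumors, each with kidney tumor.

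The keratin classes and the linker, adhesion, filament and marker lists were chosen with earlier results of these data known. Named with values are simple keratins, keratins called in a comparison, and keratins with a mean of at least 1 CPM in a group.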

Additional observations from a re-analysis of the deposited data

Results flagged for a closer look

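Of 50 sets of 4 to 6 animals checked for a sample far from the rest, 14 held one. The check flags about 1 in 20 sets of independent, normally distributed values. Levels here were skewed, and keratins of the same animal are not independent sets, so that rate does not apply. The retro-orbital tumor of mouse 5 accounted for 5 of them, with Krt5 at 27.4, Krt7 at 8.15, Krt8 at 16.6, Krt14 at 12.5 and Krt18 at 15.7 CPM, where the other 3 tumors were under 1 CPM. Dysmorphic fetus 2 accounted for 3, with Krt4 at 179, Krt6a at 26.7 and Krt13 at 166 CPM. Dysmorphic fetus 4 stood apart in Krt16 at 4.25 CPM (1.05 to 1.88 in the others) and Krt77 at 17.5 CPM (0.542 to 2.27), and dysmorphic fetus 5 in Krt20 at 16.4 CPM (0.292 to 4.54). In non-transformed kidney, Krt17 was at 3.91 CPM in mouse 5 (0.103 to 0.386 in the others) and Krt80 at 8.48 CPM in mouse 3 (5.63 to 5.98). Krt5 was at 5.94 CPM in the kidney tumor of mouse 4 (0.228 to 1.23).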

How the results depend on the processing

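No keratin called in a comparison changed direction under any alternative run. DESeq2 called 6 keratins in kidney tumors against controls, 1 against non-transformed kidney, 2 in retro-orbital and 8 in brain tumors against kidney tumors, 3 between brain and retro-orbital tumors and 15 in dysmorphic kidneys, where edgeR called 3, 0, 1, 2, 0 and 2. Halved counts gave 1 in kidney tumors against controls. With all groups in 1 fit, 5 were called in brain against kidney tumors and 2 in brain against retro-orbital tumors. The title code as a covariate left 1 in dysmorphic kidneys, Krt35, for which a higher value was the only possible outcome. With mouse as a replicate block, 0 were called in brain tumors (0 also in the same mice without the block), 1 in retro-orbital tumors (Krt8 in place of Krt20) and 0 against non-transformed kidney. Leaving out 1 animal gave 0 to 3 calls in kidney tumors against controls, 0 to 4 in retro-orbital and 0 to 2 in brain tumors against kidney tumors, 0 to 1 between those sites and 0 to 6 in dysmorphic kidneys, with 0 throughout in the other comparisons. Without the retro-orbital tumor of mouse 5 alone there were 4 calls, and without the brain tumor of mouse 2 alone 0. RLE scaling kept all 7 counts within 1.5 times. The cause of these shifts was not tested. Shares of all genes called are not given for most of these fits, so their counts are not results about keratins. By longest-transcript length, 21 of 80 ranks of keratins within a group moved. Without the filter on low counts all 7 counts stayed within 1.5 times, but Krt20 in kidney tumors against controls was no longer called, and in brain against kidney tumors Krt77 was called in place of Krt222. For keratins with few counts, such as Krt72 with 4 in all libraries, a difference was not detectable at this depth.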
